A study of Homo sapiens with 6 samples.

Results

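The genes of the MYC and MAX network were examined in LX-2, a widely used line of human hepatic stellate cells (HSCs). The network genes were taken by symbol: MYC, MYCN, MYCL, MAX, MXD1, MXD3, MXD4, MXI1, MNT and MGA, which are 10 of the 60748 rows of the deposited expression table. Of these, 9 were among the 18275 genes with enough reads to be tested, and MYCN was not.

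RNA-seq was performed on 3 libraries of LX-2Vector cells and 3 libraries of LX-2FAP cells, each cultured for 24 h. LX-2FAP cells stably overexpressed fibroblast activation protein α (FAPα), delivered by lentivirus from a ubiquitin promoter, and LX-2Vector cells are labelled as the vector control. Per the study's methods, the vector also carries EGFP behind an SV40 promoter and puromycin resistance. Per those methods, stable overexpressing cells were selected as clones with puromycin. Whether the libraries of a group came from 1 clone or several, and from separate cultures, is not given in the sources used here, so the p-values below measure only the spread between these libraries.

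MYC, MYCN and MYCL are basic helix-loop-helix leucine zipper transcription factors that bind DNA as dimers with MAX, mostly at E-box sequences, and raise the transcription of genes for ribosome production, metabolism and cell division. MAX is the common partner of the network. MXD1, MXD3, MXD4, MXI1 and MNT also dimerise with MAX, occupy similar sites and recruit SIN3 and histone deacetylase complexes, so they act against MYC at its target genes. MGA, a very large protein with both a T-box and a MAX-binding domain, joins MAX in a repressive Polycomb complex named PRC1.6. In the liver, MYC is known for its part in regeneration, tumor growth and the proliferation of activated stellate cells.

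The libraries held 17355700 to 26352060 counts. FAP, the overexpressed gene, had 49, 42 and 55 counts in the LX-2Vector libraries and 14864, 15160 and 14805 in the LX-2FAP libraries (log2 fold change 8.33 ± 0.13 (SE), edgeR adjusted p = 4.47e-16). Of 16 stellate cell and myofibroblast markers 12 were tested, with summed levels of 2149 to 2342 CPM (normalized counts-per-million) in LX-2Vector and 2182 to 2327 in LX-2FAP. Most of that sum was VIM, the intermediate filament vimentin, which rose (log2 fold change 0.13 ± 0.03, edgeR adjusted p = 0.0372), while COL1A1 (-0.40 ± 0.08, edgeR adjusted p = 0.0135), COL3A1 (-0.69 ± 0.12, edgeR adjusted p = 0.00765) and PDGFRB (-0.38 ± 0.09, edgeR adjusted p = 0.0269) fell. LRAT, the retinol-esterifying enzyme of quiescent stellate cells, was at 0 in every library. Summed hepatocyte markers were at 12.8 to 14.7 CPM in LX-2Vector and 10.5 to 11.6 in LX-2FAP, and those of epithelial, leukocyte and endothelial cells were under 10 CPM in each library. On the first principal component (36.2% of the variance), LX-2FAP replicate 1 lay at 1.91, nearer to the LX-2Vector libraries (-20.7 to -11.6) than the other LX-2FAP libraries did (17.01 and 25.4).

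The levels of the network genes were first ranked by deposited FPKM, which is scaled to gene length and to library size. Levels can then be set side by side between genes, as far as the gene lengths used hold. MAX had the highest mean level in LX-2Vector cells, 10.8 ± 0.536 FPKM (SD, n = 3), followed by MYC at 10.3 ± 0.144. Their ranges overlapped, although MAX was above MYC within each of the 3 libraries. The ranks in both groups rest on the gene lengths behind the deposited FPKM, 6257 bases for MAX and 4584 for MYC. The merged exons in GENCODE are shorter, at 4430 bases for MAX and 3001 for MYC. Which of MAX and MYC ranks first therefore depends on the lengths used. MXD4 came next at 9.14 ± 0.470 FPKM, then MGA at 7.27 ± 0.0738, MXI1 at 5.19 ± 0.735, MXD1 at 3.96 ± 0.364, MXD3 at 3.43 ± 0.181 and MNT at 3.20 ± 0.0380. MYCL was far below at 0.677 ± 0.0691 FPKM, and MYCN was at 0.0048. Apart from MAX and MYC, the ranges of neighbours in this order did not overlap. The rank order of the means in LX-2FAP cells was the same, but it was less clear. There the ranges of MXD4 and MGA, of MXI1 and MXD1, and of MXD3 and MNT overlapped. MXD1 was above MXI1 in LX-2FAP replicates 2 and 3, and MNT was above MXD3 in LX-2FAP replicate 3.

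**Figure D1:**
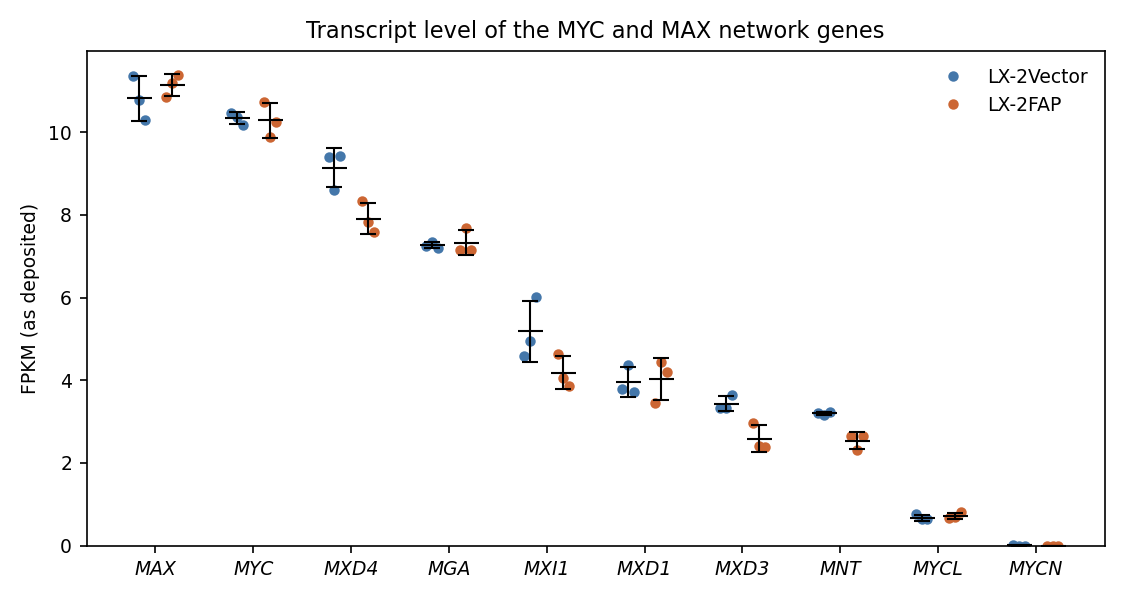
Deposited FPKM of the 10 network genes in each library (points: blue LX-2Vector, orange LX-2FAP; bars: mean ± SD, n = 3), ordered by mean level in LX-2Vector. MAX and MYC lie near 10.8 and 10.3 FPKM in LX-2Vector, the LX-2FAP points of MNT, MXD3 and MXD4 lie below all LX-2Vector points, and MYCN is at or near 0.

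MYC itself, the member through which the family acts in most tissues, was at nearly the same level in both groups. MYC (chromosome 8, 127735434 to 127741434 on the plus strand of GRCh38) stood at 10.5, 10.4 and 10.2 FPKM in LX-2Vector and at 10.7, 9.88 and 10.2 in LX-2FAP. The LX-2FAP libraries lay on both sides of the LX-2Vector range. The log2 fold change of LX-2FAP over LX-2Vector was 0.02 ± 0.05 (SE), with a 95% confidence interval of -0.09 to 0.13 and an edgeR adjusted p = 0.849, and its sign depended on the scaling (-0.0057 with library size alone). No gene overlaps the exons of MYC in GENCODE 29, which sum to 3001 bases. The length behind the deposited FPKM of MYC was 4584 bases, so overlaps of the counted gene model could not be checked. MYC carried 93.8% of the summed FPKM of MYC, MYCN and MYCL in LX-2Vector and 93.5% in LX-2FAP.

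The other MYC family members contributed little transcript. MYCL, which is best known from small cell lung cancer, had 101, 56 and 68 counts in LX-2Vector and 82, 63 and 87 in LX-2FAP. These ranges overlapped, and the log2 fold change was 0.10 ± 0.15 (95% confidence interval -0.20 to 0.41, edgeR adjusted p = 0.735), so no difference could be detected at this depth. MYCN, the neural and embryonic member, had a single count, in LX-2Vector replicate 1, and none in the other 5 libraries. In these bulk samples fewer cells with a transcript and less transcript per cell cannot be told apart, and protein was not measured in these files.

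MAX and MGA, which dimerise with each other, did not pass the test. MAX was at 11.4, 10.8 and 10.3 FPKM in LX-2Vector and at 10.8, 11.2 and 11.4 in LX-2FAP, so the groups overlapped. Its log2 fold change was 0.07 ± 0.05 (95% confidence interval -0.04 to 0.18, edgeR adjusted p = 0.478). MGA, the member with the most reads, had 2497 to 3745 counts per library and differed by 0.04 ± 0.04 on the log2 scale (95% confidence interval -0.05 to 0.13, edgeR adjusted p = 0.633).

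The antagonists moved unequally, and the 2 network genes that passed the test were both antagonists and both lower in LX-2FAP. MNT, the broadly expressed antagonist, and MXD3, the MXD protein linked to the S phase of dividing cells, fell. These are 2 of 9 members tested, none higher. Over all genes tested 5.29% were called at an adjusted p under 0.05 (469 higher, which is 2.57%, and 498 lower, which is 2.73%). The split of all calls moved with the scaling, to 239 higher and 809 lower with library size alone, 614 and 407 with DESeq2, 625 and 205 with a GC trend removed and 1262 and 466 with a gene length trend removed. The log2 fold changes of MNT and MXD3 were below 0 under each of these, but with the GC trend removed neither passed the test (edgeR adjusted p = 0.212 and 0.169).

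MNT (chromosome 17, 2384060 to 2401118, minus strand) was at 3.20, 3.16 and 3.23 FPKM in LX-2Vector and at 2.66, 2.31 and 2.66 in LX-2FAP. The LX-2Vector libraries were tightly grouped, and each LX-2FAP library was below all of them. The log2 fold change was -0.30 ± 0.07 (SE; 95% confidence interval -0.44 to -0.15, edgeR adjusted p = 0.0233). The antisense gene AC006435.1 covers 12.2% of the exon bases of MNT and had 0 counts in all 6 libraries.

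MXD3 (chromosome 5, 177301461 to 177312757, minus strand) was at 3.33, 3.32 and 3.64 FPKM in LX-2Vector and at 2.97, 2.40 and 2.39 in LX-2FAP. The groups did not overlap, and LX-2FAP replicate 1 was the closest to LX-2Vector. The log2 fold change was -0.37 ± 0.09 (SE; 95% confidence interval -0.56 to -0.18, edgeR adjusted p = 0.0306). The count of MXD3 is uncertain, because 18.0% of its exon bases overlap RAB24 on the same strand and 22.5% overlap PRELID1 on the other strand. RAB24 was at -0.16 ± 0.12 on the same scale (edgeR adjusted p = 0.480) and PRELID1 at 0.10 ± 0.08 (edgeR adjusted p = 0.470).

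Both calls depended on the libraries included. Leaving out any library other than LX-2FAP replicate 1 put the edgeR adjusted p of MNT between 0.0515 and 0.121 and that of MXD3 between 0.0565 and 0.184, while over all 6 omissions the log2 fold change stayed between -0.33 and -0.24 for MNT and between -0.48 and -0.31 for MXD3. Without LX-2FAP replicate 1 there were 4 members called, as MXD4 (edgeR adjusted p = 0.0295) and MXI1 (edgeR adjusted p = 0.0285) passed as well. That fit called 1949 of 18794 genes over the whole table, 1057 of them lower. The fits without any other single library called 26 to 662.

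Because MNT and MXD3 are the members that passed the test, the 250 bases before their annotated starts are shown (RefSeq, GRCh38.p14: MNT chr17:2401061-2401310 and MXD3 chr5:177312753-177313002, both read on the minus strand). Capitals mark the canonical E-box CACGTG, which reads the same on both strands, and the GC box GGGCGG or, on the other strand, CCGCCC.
MNT: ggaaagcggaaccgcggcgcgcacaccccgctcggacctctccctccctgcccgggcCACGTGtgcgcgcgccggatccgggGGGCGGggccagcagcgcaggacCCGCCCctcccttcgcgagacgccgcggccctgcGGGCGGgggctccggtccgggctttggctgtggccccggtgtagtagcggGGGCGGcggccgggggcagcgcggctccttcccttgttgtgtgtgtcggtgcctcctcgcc
MXD3: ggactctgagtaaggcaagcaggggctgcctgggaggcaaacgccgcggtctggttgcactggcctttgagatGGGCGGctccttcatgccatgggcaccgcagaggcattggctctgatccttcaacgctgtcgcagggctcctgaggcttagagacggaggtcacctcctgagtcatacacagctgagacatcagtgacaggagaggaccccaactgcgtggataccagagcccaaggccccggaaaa
The MNT sequence held 1 E-box, at position -193 from the start, and 4 GC boxes, at a GC content of 78.0%. The MXD3 sequence held no E-box and 1 GC box, at 60.4% GC. Of the network genes 9 were matched to 14 promoter entries and MYC was not. An E-box was found in 2 of those 14 entries (14.3%; the other belongs to MXD4) against 6.34% of 35116 promoters of all genes, and a GC box in 11 (78.6%) against 42.6%. The median GC content was 65.8% in the entries of the network genes and 58% in all promoters, so these shares are not matched in GC. These matches are descriptions of letters, and binding was not measured.

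MXD4 and MXI1 were lower in mean level without passing the test. MXD4, a member tied to differentiation and quiescence, was at 9.40, 8.60 and 9.43 FPKM in LX-2Vector and at 8.33, 7.84 and 7.58 in LX-2FAP, again with no overlap. Its log2 fold change was -0.18 ± 0.05 (95% confidence interval -0.30 to -0.06, edgeR adjusted p = 0.0639, unadjusted p = 0.00453).

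MXI1, also named MXD2 and known as a gene that responds to low oxygen, was at 4.60, 4.95 and 6.01 FPKM in LX-2Vector and at 4.63, 4.05 and 3.87 in LX-2FAP. LX-2Vector replicate 3 was the highest library, and LX-2FAP replicate 1 lay just above LX-2Vector replicate 1, so the groups overlapped. The log2 fold change was -0.27 ± 0.09 (95% confidence interval -0.47 to -0.08, edgeR adjusted p = 0.0899, unadjusted p = 0.00886), and it was -0.15 without LX-2Vector replicate 3.

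MXD1, the first described antagonist of this family, differed from these genes in direction but not beyond its error. It was at 3.79, 4.38 and 3.72 FPKM in LX-2Vector and at 3.46, 4.45 and 4.20 in LX-2FAP. The ranges overlapped fully, and the log2 fold change was 0.05 ± 0.09 (95% confidence interval -0.14 to 0.24, edgeR adjusted p = 0.790), with a sign that turned to -0.02 without LX-2FAP replicate 2. Non-overlapping groups on the CPM scale, all lower in LX-2FAP, were thus seen for MNT, MXD3 and MXD4, which are 3 of 9 members. Among all genes tested 13.4% were lower without overlap, and 26.4% did not overlap in either direction.

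**Figure D2:**
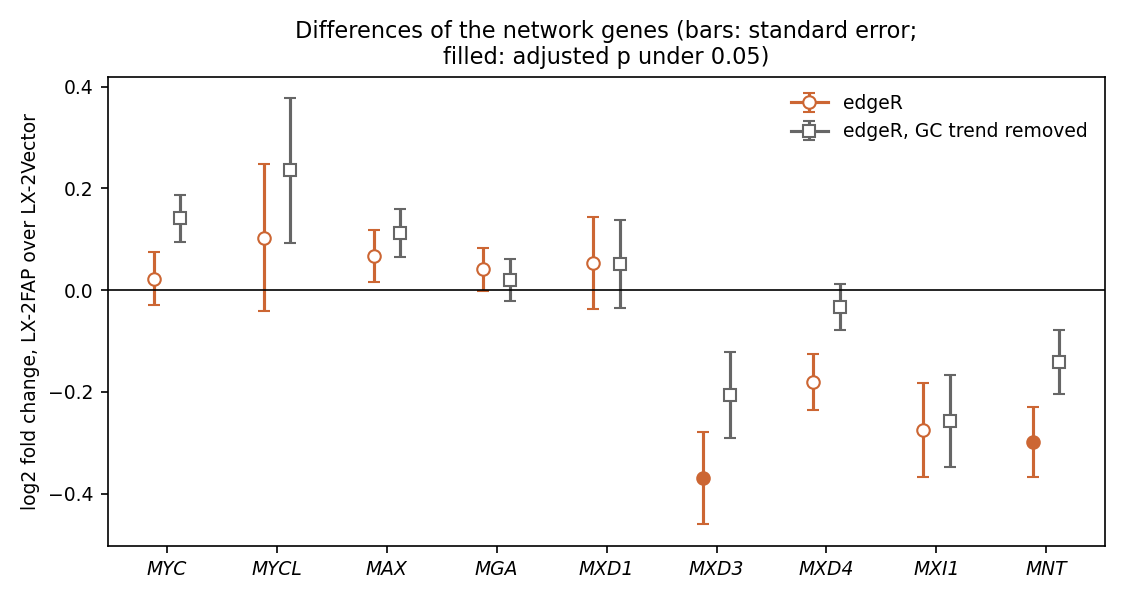
Log2 fold change of LX-2FAP over LX-2Vector for the 9 tested network genes (points: estimate, bars: standard error, n = 3 per group; orange circles: edgeR, grey squares: edgeR with a GC trend removed; filled: adjusted p under 0.05). MXD3 (-0.37) and MNT (-0.30) are filled in the first fit, and no gene is filled in the second.

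The members whose groups did not overlap were also rich in GC. The GC content of the transcripts was 65.3% for MXD3, 63.6% for MNT and 62.3% for MXD4, which placed all 3 in the highest of 10 GC deciles of the tested genes. In that decile the median log2 fold change of all genes was -0.13, with 146 genes called lower and 2 called higher. In the lowest decile the median was 0.08, with 4 called lower and 138 called higher. Across the whole table, the median log2 fold change fell from each decile to the next.

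When a smooth trend on GC content was taken out of each library, the calls for both antagonists were lost. The log2 fold change became -0.14 ± 0.06 for MNT (edgeR adjusted p = 0.212) and -0.21 ± 0.08 for MXD3 (edgeR adjusted p = 0.169), each smaller by more than 1.5 times. MXD4 went to -0.03 ± 0.05 (edgeR adjusted p = 0.732). Within their shared GC decile, the share of genes with a lower log2 fold change before this correction was 21.3% for MNT, 15.1% for MXD3 and 39.3% for MXD4. The part of GC content in the differences of MNT and MXD3 was not tested.

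MXI1 and MYC behaved otherwise in the same fit. MXI1, at 47.4% GC in the fifth decile where the median of all genes was 0.0045, remained at -0.26 ± 0.09 (edgeR adjusted p = 0.113). MYC, at 58.7% GC in the ninth decile where the median was -0.10, went from 0.02 to 0.14 ± 0.05 (edgeR adjusted p = 0.0904), and MYCL from 0.10 to 0.24 ± 0.14 (edgeR adjusted p = 0.362). MAX went from 0.07 to 0.11, MGA from 0.04 to 0.02 and MXD1 was at 0.05 in both fits. No member was called in this fit, against 830 of all 18275 genes, and 5 of 9 had an unadjusted p under 0.05, against 3947 of all genes. Over the whole table, 526 of the 967 genes called by edgeR were still called with the trend removed.

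**Figure D3:**
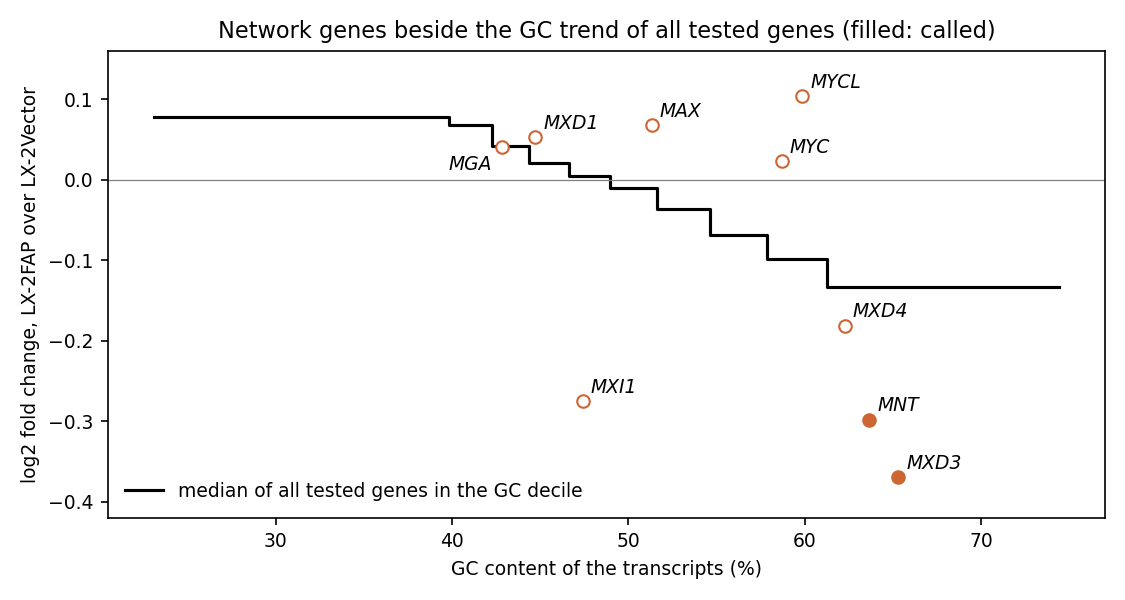
Log2 fold change of each tested network gene against the GC content of its transcripts (%), with the median of all tested genes in each GC decile as a stepped line (filled: adjusted p under 0.05 in edgeR). The line falls from 0.08 to -0.13, MNT, MXD3 and MXD4 lie below it at its GC-rich end, MXI1 lies below it near the middle, and MYC and MYCL lie above it.

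**Figure D4:**
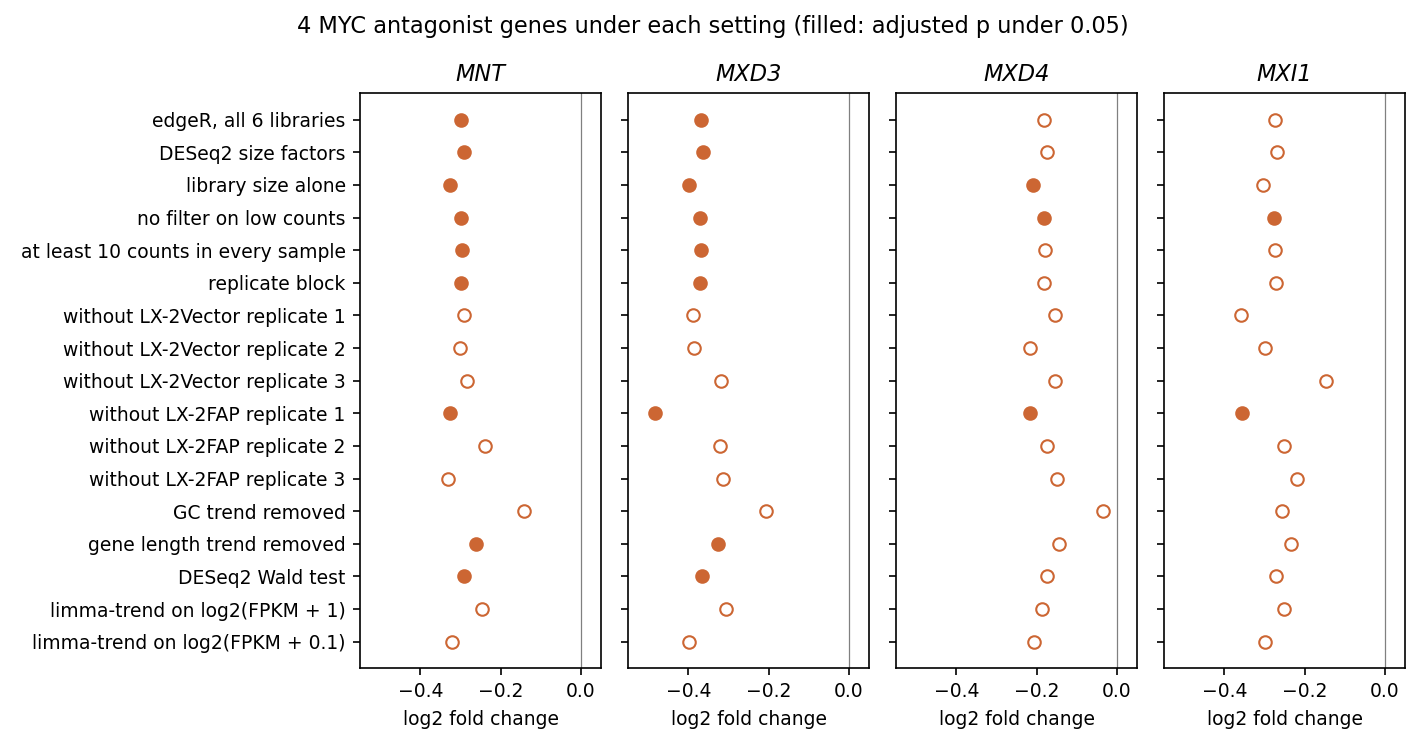
Log2 fold change of MNT, MXD3, MXD4 and MXI1 under edgeR and each of 16 alternatives (rows; filled: adjusted p under 0.05). Every point is below 0. MNT and MXD3 are filled in 8 alternatives each, MXD4 in 3 and MXI1 in 2, and the points nearest 0 for MNT, MXD3 and MXD4 are those with the GC trend removed.

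The balance of the network at the transcript level was then described by summed FPKM. MYC, MYCN and MYCL together were at 11.02 ± 0.206 FPKM (SD, n = 3) in LX-2Vector and 11.01 ± 0.423 in LX-2FAP. The 5 antagonists together were at 24.3, 24.4 and 26.03 FPKM in LX-2Vector and at 22.0, 21.0 and 20.7 in LX-2FAP. Each LX-2FAP library was below each LX-2Vector library, and the ratio of means was 0.853. MYC family transcript per antagonist transcript was 0.443 ± 0.0242 in LX-2Vector and 0.518 ± 0.0160 in LX-2FAP, a ratio of 1.17, which ranged from 1.134 to 1.195 when single libraries were left out and was 1.16 without MNT. These sums are over chosen members and have no test. They rest on the gene lengths behind the FPKM and include the uncertain MXD3 count and the GC-rich genes above.

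The genes with the pattern across the 6 libraries most like that of a member were found by the distance between log2 CPM values, each centred on its own mean, among 11555 genes averaging at least 100 counts. For MYC the 4 nearest were FRG1BP (distance 0.0236), FAF1 (0.0247), TMEM106C (0.0332) and EZR (0.0339). For MXD3 they were MAPT (0.0290), CIART (0.0556), SLC26A6 (0.0671) and PPP2R2B (0.0743), and for MNT they were PTPRN (0.0331), DHRS1 (0.0565), TMEM134 (0.0721) and GNAO1 (0.0745). The median distance over all compared genes was 0.214 for MYC, 0.576 for MXD3 and 0.454 for MNT. These values were scaled to library size, but the trend on GC content was not removed from them, and the likenesses are a description over 6 points.

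Among the genes that work with the network, 2 passed the test. Of 67 partners and regulators 66 were tested, 1 rose (1.52%, against 2.57% of all genes) and 1 fell (1.52%, against 2.73%), and their median log2 fold change was -0.02, against -0.01 over all genes tested. CCNT1, the cyclin of the elongation kinase P-TEFb that MYC recruits, was at 15.6, 15.8 and 15.7 FPKM in LX-2Vector and at 16.4, 17.8 and 18.2 in LX-2FAP. Its groups did not overlap (log2 fold change 0.18 ± 0.05, edgeR adjusted p = 0.0346). EHMT1, a histone H3 lysine methyltransferase of the MGA-containing PRC1.6 complex, was at 3.73, 3.72 and 3.68 FPKM against 3.30, 3.29 and 3.17 (log2 fold change -0.16 ± 0.04, edgeR adjusted p = 0.0471). EHMT1 was called in 3 of 16 alternatives, and was at -0.06 ± 0.04 (edgeR adjusted p = 0.426) with the GC trend removed, and CCNT1 at 0.16 ± 0.04 (edgeR adjusted p = 0.0495). Each of them was called in 1 of the 6 fits that leave out a library, the one without LX-2FAP replicate 1, where 6 partners and regulators were called.

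By role, 0 of 4 tested genes of the MLX arm, the parallel network that senses glucose, passed the test, among them TXNIP at -0.20 ± 0.09 (edgeR adjusted p = 0.204). Of 18 MYC cofactors 1 passed, which is CCNT1. None of 18 regulators of MYC protein stability passed, and their log2 fold changes ran from -0.22 to 0.16. None of 13 members of the SIN3 and histone deacetylase complexes that MXD proteins recruit passed, with a range of -0.17 to 0.14. Of 13 other PRC1.6 genes 1 passed, which is EHMT1. Over these 5 groups 15 of 66 genes had an unadjusted p under 0.05, against 4054 of 18275 over the whole table, and the called shares of the single groups are to be read against the 5.29% called among all genes.

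Genes commonly described as induced by MYC leaned higher in LX-2FAP. The list was chosen with earlier results of these data known, and no test was made over it. Of 64 tested 11 rose (17.2%, against 2.57% of all genes) and 1 fell (1.56%, against 2.73%), 43 had a log2 fold change above 0 and 21 one below, and the median was 0.09. ODC1, the first enzyme of polyamine synthesis, was at 70.6, 72.8 and 64.6 FPKM in LX-2Vector and at 75.5, 90.0 and 85.3 in LX-2FAP (log2 fold change 0.30 ± 0.06, edgeR adjusted p = 0.0139). HSPE1, the mitochondrial co-chaperonin, rose by 0.29 ± 0.08 (edgeR adjusted p = 0.0440). Its count is uncertain, since 14.2% of its exon bases overlap HSPD1 on the other strand and 9.71% overlap HSPE1-MOB4 on the same strand.

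DDX21, an RNA helicase of ribosomal RNA processing, rose by 0.24 ± 0.04 (edgeR adjusted p = 0.00765), from 51.5, 53.3 and 51.5 FPKM to 57.9, 61.6 and 61.0. The other 8 that rose had log2 fold changes of 0.16 to 0.22. LDHA, the lactate dehydrogenase subunit of glycolysis, was the one that fell (-0.25 ± 0.07, edgeR adjusted p = 0.0421), although its CPM ranges touched, at 972, 991 and 1108 in LX-2Vector and 973, 770 and 833 in LX-2FAP.

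The MYC-induced genes also leaned higher with the GC trend removed, where the calls over the whole table moved toward higher as well. The part of GC content in this lean was not tested. The number of MYC-induced genes called depended on single libraries, as it did over the whole table. With the GC trend removed 17 rose and 0 fell, against 625 and 205 of all 18275 genes (469 and 498 without the correction), and the median was 0.13, against 0.03 over all genes. LDHA was then at -0.25 ± 0.07 (edgeR adjusted p = 0.0502), and 10 genes were called in both fits. Omitting replicate 1, 2 or 3 of LX-2Vector left 5, 8 or 6 genes that rose, where 176, 325 or 216 of all genes did. Omitting replicate 1, 2 or 3 of LX-2FAP left 14, 2 or 0, where 892, 65 or 14 of all genes did. In the fit without LX-2FAP replicate 3, 17 of 64 were at an unadjusted p under 0.05 in either direction, against 2673 of 18822 over the whole table. Without LX-2FAP replicate 1, 3 MYC-induced genes also fell, among 892 genes called higher and 1057 called lower over the whole table. An E-box was found in 24.0% of 75 promoter entries of these genes, against 6.34% of all promoters. The 2 sets were not matched in GC content, with medians of 66.4% and 58%. Of 25 promoter entries of MYC-repressed genes 12% held an E-box. Binding was not measured.

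Genes commonly described as repressed by MYC, also listed with earlier results of these data known, leaned lower. Of 20 tested 5 fell (25.0%, against 2.73% of all genes) and 0 rose, with a median of -0.14. NDRG1, a stress gene that is also raised by low oxygen, was at 10.9, 10.4 and 20.4 FPKM in LX-2Vector and at 9.92, 5.24 and 5.49 in LX-2FAP (log2 fold change -0.98 ± 0.23, edgeR adjusted p = 0.0249). LX-2Vector replicate 3 was the highest and LX-2FAP replicate 1 lay close to the other LX-2Vector libraries. Without LX-2Vector replicate 3 the log2 fold change was -0.59 (edgeR adjusted p = 0.0638).

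CEBPD, an inducible transcription factor of the acute phase, was at 2.42, 2.85 and 4.17 FPKM against 2.01, 1.40 and 1.204 (-0.97 ± 0.22, edgeR adjusted p = 0.0233). ITGB4, the hemidesmosome integrin subunit, was at 1.36, 1.18 and 1.31 FPKM against 0.764, 0.706 and 0.516 (-0.93 ± 0.13, edgeR adjusted p = 0.00352) and was called without each single library in turn. PDGFRB, the platelet-derived growth factor receptor that is also among the stellate cell markers, fell by 0.38 on the log2 scale (SE 0.09, edgeR adjusted p = 0.0269), and CLU, which encodes the chaperone clusterin, fell by 0.28 (SE 0.05, edgeR adjusted p = 0.00765). The cell cycle inhibitors of the list did not pass the test, CDKN1A being at -0.04 ± 0.06 (edgeR adjusted p = 0.744) and CDKN1B at 0.01 ± 0.04 (edgeR adjusted p = 0.959).

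With the GC trend removed 3 of these 5 genes stayed called, NDRG1, CLU and ITGB4, against 205 of all 18275 genes called lower, and the median was -0.04, against 0.03 over all genes. Of the 20 genes 12 were then below 0 and 8 above, compared with 15 and 5 before. CEBPD (70.0% GC) then had an edgeR adjusted p = 0.0618 and PDGFRB one of 0.0709. Omitting replicate 1, 2 or 3 of LX-2Vector left 4, 5 or 2 genes that fell, where 215, 337 or 179 of all genes did. Omitting replicate 1, 2 or 3 of LX-2FAP left 7, 2 or 1, where 1057, 64 or 12 of all genes did. Without LX-2FAP replicate 1, 2 genes of the list also rose.

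**Figure D5:**
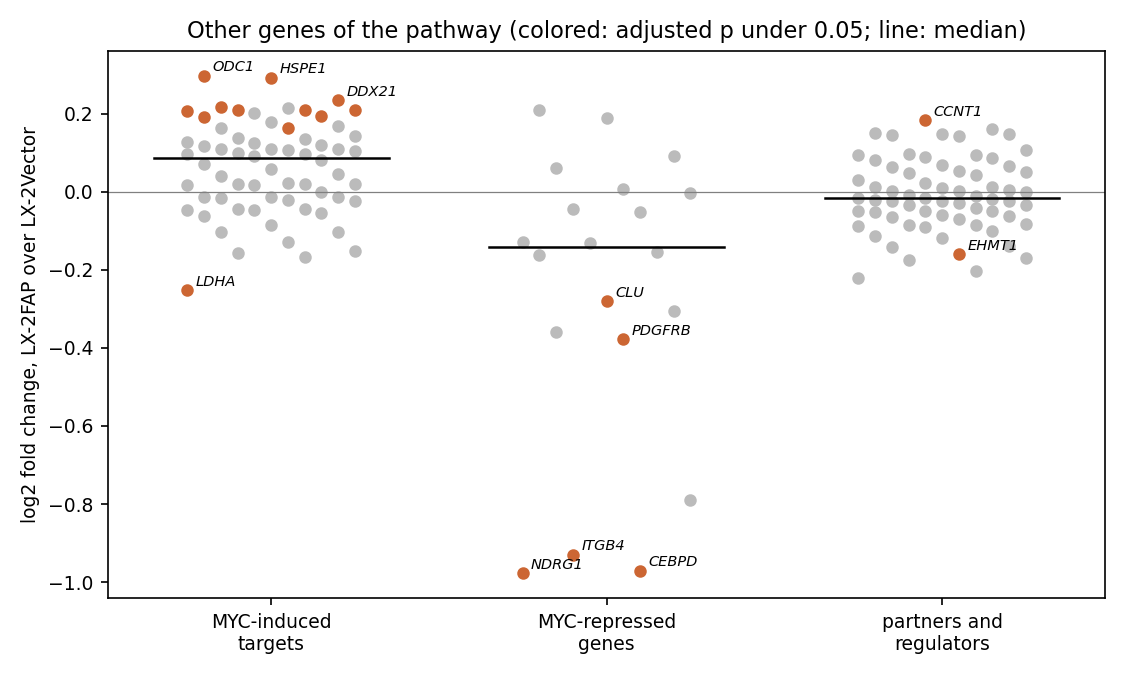
Log2 fold change of LX-2FAP over LX-2Vector for each tested MYC-induced gene (64), MYC-repressed gene (20) and partner or regulator (66); colored points passed the test (adjusted p under 0.05) and horizontal lines are medians. The medians are 0.09, -0.14 and -0.02.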

How the data were processed

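Total RNA of LX-2 cells was sequenced in 6 libraries, 3 per group by their titles. The authors aligned reads with HISAT2 2.0.5 and counted reads per gene with featureCounts 1.5.0-p3 (submitters' processing notes), and they deposited whole-number counts, not normalized. The authors also deposited FPKM values computed from gene length and count. The notes name hg18, whereas the identifiers are current Ensembl ones, so coordinates, overlaps and GC content (known for 98.1% of tested genes) were taken from GENCODE 29 (GRCh38). The annotation release and the strand setting are not given in the sources used here, so reads of overlapping genes cannot be told apart. The labels name ribosomal RNA depletion and the methods also poly(A) isolation.

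Differences in counts were assessed in edgeR 4.0.16 (R 4.3.3) by its quasi-likelihood F test, after TMM normalization and the default filter (minimum count 10, minimum total 15), without covariates. P-values were 2-sided, with Benjamini-Hochberg adjustment across every tested gene, and an adjusted p under 0.05 made a call. An exact permutation test of 3 libraries against 3 cannot go below p = 0.1. CPM used TMM-scaled library sizes. Alternatives were DESeq2 1.42.0, other size factors and filters, limma 3.58.1 on log2(FPKM + 1) and log2(FPKM + 0.1), a replicate block and each library left out. A loess trend (span 0.5) on GC content or gene length, entered as an offset, was added after the data had been seen. The test code was tested on simulated data.

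The members and gene lists were chosen with earlier results of these data known. Named were the members and FAP, each list's called genes where at most 6 were called and otherwise the 3 with the largest change in each direction (mean count at least 100), and the 4 genes with the nearest pattern to MYC, MNT and MXD3; TXNIP, MLX, CDKN1A and CDKN1B were named after their values were seen. Of 10 RNAs from the members' loci, 7 were in the table and 1, PVT1, was tested.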

Additional observations from a re-analysis of the deposited data

How the results depend on the processing

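Counts of called genes depended strongly on the test. Over the whole table, 967 genes were called with edgeR, 1606 with no filter on low counts, 1728 with the gene length trend removed, 2 with limma at either pseudocount, and 26 to 1949 when single libraries were left out (1949 without replicate 1 of LX-2FAP, 26 without its replicate 3). At an unadjusted p under 0.05 were 3662 and 3638 of 18275 genes with limma (pseudocounts 1 and 0.1) and 3947 with the GC trend removed. With single libraries left out, that number ran from 2673 of 18822 (without LX-2FAP replicate 3) to 4659 of 18794 (without LX-2FAP replicate 1). The unadjusted counts below are to be read against these. Of the network members, 2 were called with edgeR, 4 with no filter, 0 with the GC trend removed (5 at an unadjusted p under 0.05), 0 with limma at either pseudocount (4 at an unadjusted p under 0.05), and 0 to 4 when single libraries were left out (3 to 5 at an unadjusted p under 0.05). Partners and regulators, 2 with edgeR, numbered 1 with DESeq2 size factors and 1 with DESeq2's Wald test (EHMT1 was lost in both, with adjusted p = 0.0522 and 0.0637), 5 with no filter, 4 with the gene length trend removed, 0 with limma at either pseudocount (13 at an unadjusted p under 0.05), and 0 to 6 when single libraries were left out. MYC-induced genes, 12 with edgeR, numbered 0 with limma at either pseudocount (17 and 18 at an unadjusted p under 0.05), and 0 to 17 when single libraries were left out. MYC-repressed genes, 5 with edgeR, numbered 3 with the GC trend removed, 8 with the gene length trend removed, 3 with DESeq2's Wald test, 0 with limma at either pseudocount (11 at an unadjusted p under 0.05), and 1 to 9 when single libraries were left out. The cause of these changes was not tested.

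The log2 fold change of MYC turned to -0.0057 with library size alone and to -0.0070 and -0.0077 with limma at pseudocounts of 1 and 0.1, and ran from -0.0064 to 0.0499 when single libraries were left out. That of MXD1 ran from -0.0199 to 0.16 when single libraries were left out. The ratio of MYC family to antagonist transcript stayed between 1.134 and 1.195 under each of its alternatives.

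Replicate numbers are shared by the groups, but same-numbered libraries did not deviate together (correlations -0.04, 0.04 and -0.01 for replicates 1, 2 and 3), so the numbers were not taken to pair the samples. With the replicate block 975 genes were called, among them 2 members and 1 partner or regulator (EHMT1 had an edgeR adjusted p = 0.0539). EHMT1 was also lost with no filter (edgeR adjusted p = 0.0531) and with the gene length trend removed (0.113). Counts of 56 to 101 for MYCL and at most 1 for MYCN limit what can be said of these genes.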

Other observations

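PVT1, the long noncoding RNA next to MYC and a co-amplified neighbour of it in cancers, was the one tested RNA from the loci of the network genes. It was at 0.572, 0.584 and 0.599 FPKM in LX-2Vector and at 0.445, 0.541 and 0.625 in LX-2FAP. The groups overlapped, and the log2 fold change was -0.10 ± 0.10 (SE; edgeR adjusted p = 0.630). MYCNOS and MYCNUT, the RNAs at the MYCN locus, had 0 counts in every library. MLX, the MAX-like protein of the parallel network, was at 0.09 ± 0.05 (edgeR adjusted p = 0.275), and passed the test only with the GC trend removed (0.17; edgeR adjusted p = 0.0442).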
